A study of Mus musculus with 4 samples.

Results

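The 10 genes described here make, degrade or sense prostaglandins, leukotrienes and platelet-activating factor. They were taken by symbol from the 31253 genes of the deposited tables: Ptgs1, Ptgs2, Ptges, Hpgds, Hpgd, Alox5, Alox5ap, Ltc4s, Pla2g7 and Ptger4. All 10 had at least 1 UMI (unique molecular identifier, a tag that counts each captured mRNA once). Single-cell 3′ RNA-seq was run on live CD45+ leukocytes sorted from tumor-bearing brain hemispheres, taken 14 days after implantation of CT2a, a mouse glioma line. The control group was 4 WT mice, and the other group was 4 CaMKK2 KO mice with a germline deletion of the kinase CaMKK2 in every cell of the body. Both groups were on a C57Bl/6 background, carried the same tumor and received no other agent. By the study's methods, mice in its experiments were females of 8 to 12 weeks, matched for age. Each mouse carried its own hashtag antibody, and the mice were numbered 1 to 4 within each genotype. The cells of each genotype shared 1 10x channel, so genotype and channel cannot be told apart in any comparison below.

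Prostaglandins and leukotrienes are both made from arachidonic acid. The cyclooxygenases Ptgs1 and Ptgs2 open the prostaglandin branch, terminal synthases such as Ptges and Hpgds fix which prostaglandin is made, and Hpgd starts its inactivation. In the leukotriene branch Alox5 works with the membrane protein Alox5ap, and Ltc4s then forms leukotriene C4. Myeloid cells are a major source of both families, and prostaglandin E2 is known in tumors for acting on leukocytes through receptors such as Ptger4.

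After removal of hashtag doublets and outlying cells, 10685 cells were kept, between 1006 and 1665 per mouse, with 11886048 to 20346223 UMIs per mouse. Gates on fixed marker genes put 9134 cells in 13 classes and left 1551 ungated. A class name stands for cells that carry its markers: microglia-like cells are written microglia, and tumor-associated macrophage-like cells TAM, with cMono and ncMono for the classical and non-classical monocyte-like cells. The 10 genes were not markers. The classes held 2950 TAM, 1763 cMono, 447 microglia, 164 ncMono, 212 DC2, 162 DC3, 91 DC1, 71 pDC, 36 neutrophil-like, 22 basophil-like, 1582 T, 1269 NK and 365 B cells. In clusters named by the same markers, 69.4% of gated cMono fell under cMono, beside 98.7% of TAM and 88.6% of microglia under their own names. Of the gated cMono, 592 lay within 0.1 above the gate margin. WT mouse 1 stood apart in makeup, with 38 T cells where the other WT mice had 194 to 224, and with 38 cMono and 2 ncMono. WT mice 1 and 2 had 124 and 105 microglia and WT mice 3 and 4 had 34 and 39. The 2 libraries shared 42 cell barcodes, 8 of them among kept cells. Camkk2 itself was at 28.1, 29.5, 39.0 and 27.7 CPM (a gene's UMIs per 1000000 UMIs of the same cells) over all cells of WT mice 1 to 4 and at 14.8, 18.3, 13.3 and 22.6 CPM in CaMKK2 KO mice 1 to 4. It was lower in every CaMKK2 KO mouse than in every WT mouse but not at 0; 3′ UMIs count transcripts by their end and do not show which part of the gene was deleted.

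Promoter sequences are printed for the genes on which the comparisons turn. They are RefSeq sequences of build GRCm38.p6 on the strand of the gene, from 250 bases before the annotated start to 30 bases from it. Capitals mark matches on either strand to the PU.1 core GAGGAA (a factor of myeloid cells), the GC box GGGCGG, the TATA box TATAAA, the CRE core TGACGT and the E-box CACGTG. Hpgd lies at chr8:56294302-56294581 on the plus strand, Hpgds at chr6:65144701-65144980 and Ltc4s at chr11:50238503-50238782 on the minus strand, and Ptgs1 at chr2:36230176-36230455 and Ptgs2 at chr1:150099781-150100060 on the plus strand.
Hpgd: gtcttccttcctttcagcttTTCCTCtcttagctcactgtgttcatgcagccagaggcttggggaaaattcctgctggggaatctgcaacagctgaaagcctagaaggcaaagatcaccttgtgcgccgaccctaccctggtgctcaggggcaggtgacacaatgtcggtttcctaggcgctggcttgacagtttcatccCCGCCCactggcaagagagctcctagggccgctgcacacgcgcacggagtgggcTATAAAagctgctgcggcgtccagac
Hpgds: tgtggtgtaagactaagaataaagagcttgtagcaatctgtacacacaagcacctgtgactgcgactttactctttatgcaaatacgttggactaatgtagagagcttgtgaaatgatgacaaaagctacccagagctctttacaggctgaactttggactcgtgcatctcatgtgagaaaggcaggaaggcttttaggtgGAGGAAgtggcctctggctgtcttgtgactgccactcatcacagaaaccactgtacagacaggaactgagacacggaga
Ptgs1: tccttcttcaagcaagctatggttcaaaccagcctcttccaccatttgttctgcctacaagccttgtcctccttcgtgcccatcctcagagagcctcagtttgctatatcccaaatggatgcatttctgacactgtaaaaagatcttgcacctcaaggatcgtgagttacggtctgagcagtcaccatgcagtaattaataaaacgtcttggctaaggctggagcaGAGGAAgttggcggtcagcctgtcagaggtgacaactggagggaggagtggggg
Ltc4s: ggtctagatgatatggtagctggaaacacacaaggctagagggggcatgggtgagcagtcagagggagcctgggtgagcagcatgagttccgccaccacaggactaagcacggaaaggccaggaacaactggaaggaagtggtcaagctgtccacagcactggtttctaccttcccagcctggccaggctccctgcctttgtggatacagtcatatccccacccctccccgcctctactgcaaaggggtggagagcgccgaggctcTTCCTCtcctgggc
Ptgs2: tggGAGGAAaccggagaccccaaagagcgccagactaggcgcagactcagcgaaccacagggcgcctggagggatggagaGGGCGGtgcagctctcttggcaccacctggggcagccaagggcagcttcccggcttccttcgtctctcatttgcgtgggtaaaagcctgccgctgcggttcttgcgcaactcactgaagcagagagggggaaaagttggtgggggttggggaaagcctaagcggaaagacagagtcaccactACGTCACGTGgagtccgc
Positions below count from the RefSeq start. The letters GAGGAA stood at -230 in Hpgd, -49 in Hpgds, -24 in Ptgs1, -247 in Ptgs2 and 17 in Ltc4s, and Ptges and Alox5 held them too. That made 7 of the 9 promoters found in RefSeq, while 26.0% of all 32851 promoters of this length held them. GGGCGG was in 6 of the 9 promoters (34.7% of all), those of Hpgd, Ptgs2, Ptges, Alox5, Pla2g7 and Ptger4. TATAAA was found in Hpgd at 5 to 10 (13.1% of all), counted from the RefSeq start. The GENCODE gene starts past the end of this window, at base 56294585 of chromosome 8, so the match lies upstream of that start. In Ptgs2 the match to TGACGT at 13 to 18 (7.26% of all) overlapped the match to CACGTG at 17 to 22 (6.79% of all). The AP-1 letters TGANTCA (7.46% of all) and the NF-kB consensus (1.37% of all) had no match in these 9 windows. A match describes letters and does not show that a factor binds there.

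The prostaglandin and leukotriene genes fell into separate class patterns, which the plot of pooled levels by class sets side by side. Hpgds, Ptgs1 and Ltc4s were led by microglia. Ptgs2, Alox5 and Alox5ap were highest in the few basophil-like cells and the neutrophil-like cells, followed for Ptgs2 and Alox5ap by cMono. Pla2g7 was spread over ncMono, cMono, TAM and the few neutrophil-like cells, and Ptger4 was led by DC3, the mature dendritic cells. Of 80 comparisons of neighbouring classes in the order of a gene's mean level, 23 had an unadjusted p under 0.05 and 0 had an adjusted p under 0.05 (two-sided exact permutation by sign flips within mice, 9 classes, Benjamini-Hochberg over the 80). The smallest p that 8 mice allow is 0.00781, and the smallest adjusted p was 0.0658.

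**Figure D1:**
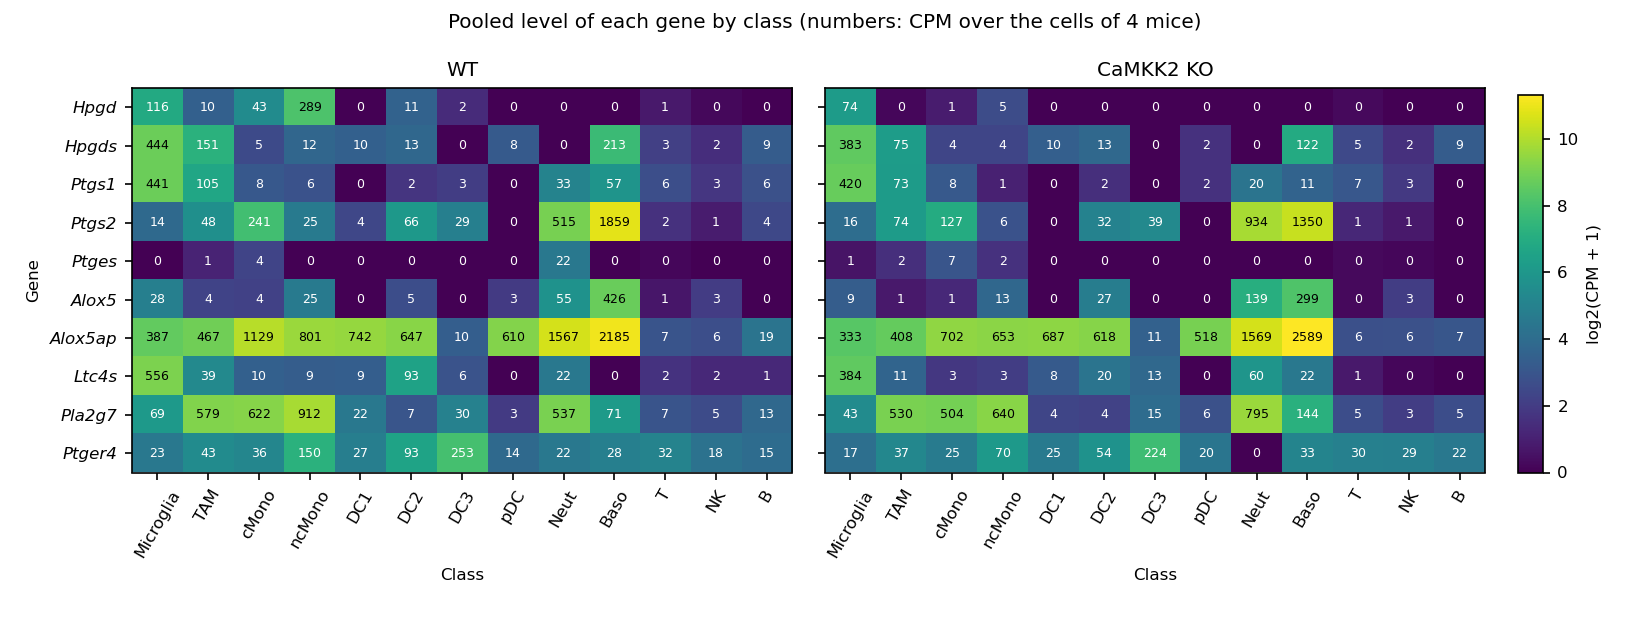
Pooled level of each of the 10 genes in the 13 classes, WT on the left and CaMKK2 KO on the right; color is log2(CPM + 1) and the printed number is CPM, rounded, over all cells of the 4 mice. Hpgds, Ptgs1 and Ltc4s are brightest in microglia, and Hpgd is at 0.817 CPM in CaMKK2 KO cMono and 0.141 CPM in CaMKK2 KO TAM.

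Ptgs1, the constitutive cyclooxygenase, was at 441 CPM in WT microglia and 420 CPM in CaMKK2 KO microglia, pooled over mice, and at 105 and 73.2 CPM in TAM. In cMono it was at 7.81 and 8.02 CPM. Among microglia a mean of 94.8% of cells over WT mice and 94.7% over CaMKK2 KO mice held a Ptgs1 UMI, at a median depth of 12578 UMIs per cell. The share in NK cells, a lymphoid class set beside it as background, was 2.36% and 1.85% at a median depth of 7076 UMIs. In microglia of WT mice 1 to 4 Ptgs1 was at 495, 420, 318 and 404 CPM, and in those of CaMKK2 KO mice 1 to 4 at 403, 273, 462 and 498 CPM. The genotypes overlapped over their whole range (log2 difference, CaMKK2 KO over WT, -0.01, SE 0.19). In TAM the WT mice were at 146, 86.8, 75.3 and 96.9 CPM and the CaMKK2 KO mice at 101, 39.4, 86.5 and 19.9 CPM. The groups overlapped there as well (log2 difference -0.68, SE 0.41, adjusted p = 0.373, edgeR quasi-likelihood test on UMIs summed per mouse, n = 4 and 4).

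Ptgs2, the inducible cyclooxygenase, had its largest share of UMIs in cMono, 38.2% of all Ptgs2 UMIs in WT and 37.6% in CaMKK2 KO. In cMono the WT mice were at 179, 257, 255 and 188 CPM and the CaMKK2 KO mice at 138, 132, 71.7 and 131 CPM. Every CaMKK2 KO mouse lay below every WT mouse, a pattern that 5.68% of the 6825 genes tested in cMono also showed. The log2 difference was -0.90 (SE 0.22), a 1.86-fold lower level, with an adjusted p of 0.0658 over all genes, which did not pass 0.05. The call changed with the tool: DESeq2 gave an adjusted p of 0.0240 for the same sums. In TAM the values were 18.6, 72.1, 61.2 and 54.0 CPM in WT and 46.3, 142, 45.9 and 101 CPM in CaMKK2 KO, with overlap (log2 difference 0.69, SE 0.46, adjusted p = 0.410, edgeR). The difference between the cMono and the TAM effect was -1.54 (SE 0.33, adjusted p = 0.0531, edgeR over 9730 genes, of which 0.678% were called), and did not pass. In the 22 basophil-like cells the WT level of Ptgs2 was 1859 CPM and the CaMKK2 KO level 1350 CPM, and in the 36 neutrophil-like cells at 515 and 934 CPM. At most 12 such cells of either class came from 1 mouse, so these levels were not tested.

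Ptges, the inducible prostaglandin E2 synthase, was captured in few cells, with 78 UMIs in all WT cells and 181 in all CaMKK2 KO cells. Its UMIs were found mainly in cMono (28 and 95 UMIs) and TAM (34 and 40 UMIs). Over all cells WT mice 1 to 4 were at 1.21, 1.23, 1.11 and 1.05 CPM and CaMKK2 KO mice at 0.690, 4.75, 1.77 and 3.28 CPM. CaMKK2 KO mouse 1 was below and the other CaMKK2 KO mice were above every WT mouse (log2 difference 1.18, SE 0.51, adjusted p = 0.281, edgeR). At this depth no class passed the minimum of 200 UMIs for Ptges.

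Hpgds, the hematopoietic prostaglandin D2 synthase, was at 444 and 383 CPM in WT and CaMKK2 KO microglia, pooled over mice, and was higher in microglia than in TAM in 8 of 8 mice. In TAM the WT mice were at 160, 127, 137 and 167 CPM and the CaMKK2 KO mice at 85.1, 34.9, 107 and 33.8 CPM. Every CaMKK2 KO mouse lay below every WT mouse, as in 9.67% of the 9321 genes tested in TAM. The log2 difference was -1.15 (SE 0.34), a 2.22-fold lower level, and the adjusted p was 0.102 (edgeR). It passed with DESeq2 (adjusted p = 0.0194). With 1 mouse left out at a time, 1 fit passed, the one without CaMKK2 KO mouse 3, the highest of its group (adjusted p = 0.0402, edgeR). Over these fits the log2 difference ran from -1.49 to -0.94 and the edgeR adjusted p from 0.0402 to 0.212. Microglia of WT mice were at 464, 460, 315 and 428 CPM and those of CaMKK2 KO mice at 323, 286, 459 and 390 CPM, with overlap (log2 difference -0.19, SE 0.18). The TAM effect minus the microglia effect was -1.08 (SE 0.28, adjusted p = 0.195, edgeR over 9658 genes, of which 0.135% were called).

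The summed level of the 10 microglia markers within the TAM gate was lower in CaMKK2 KO as well. It was 444, 384, 331 and 348 CPM in WT and 193, 164, 279 and 161 CPM in CaMKK2 KO, without overlap, and 1 of the 10 markers was at 0 in CaMKK2 KO TAM. The 7 cMono markers summed to 1000 to 1577 CPM in WT TAM and 1476 to 4097 CPM in CaMKK2 KO TAM, and the 8 TAM markers to 18686 to 19368 and 13900 to 18447 CPM. Among TAM with a microglia score under 0.05, an alternative added after the data were seen, the Hpgds difference was -0.98 (SE 0.32, adjusted p = 0.162, edgeR). The part of these markers in the Hpgds and Ltc4s values was otherwise not tested.

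**Figure D2:**
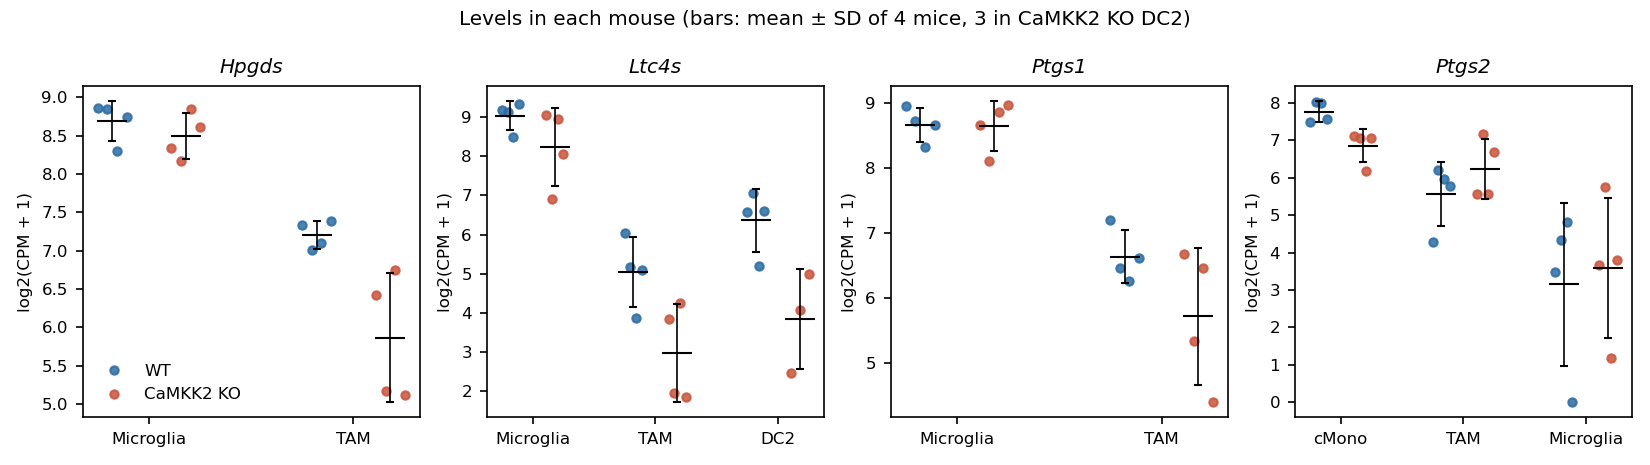
Level of Hpgds, Ltc4s, Ptgs1 and Ptgs2 in log2(CPM + 1), 1 point per mouse with at least 10 cells of the class; black bars are the mean and SD of the mice. Hpgds in TAM and Ptgs2 in cMono separate the genotypes without overlap, whereas Ptgs1 overlaps in both classes.

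Hpgd, the 15-hydroxyprostaglandin dehydrogenase that inactivates prostaglandins, fell in CaMKK2 KO cMono by 5.97 and in CaMKK2 KO TAM by 5.93 on the log2 scale, while 38.6% of CaMKK2 KO microglia held an Hpgd UMI. In cMono, WT mice 1 to 4 were at 67.5, 24.1, 32.3 and 103 CPM, from 28, 52, 106 and 109 UMIs. CaMKK2 KO mice 1 to 4 were at 0.375, 1.71, 0 and 0.240 CPM, from 1, 9, 0 and 1 UMIs in 221, 440, 137 and 386 cells. Every WT mouse lay above every CaMKK2 KO mouse. The log2 difference was -5.97 (SE 0.69, adjusted p = 0.00172, edgeR, n = 4 and 4), and pooled UMIs gave a 52.2-fold ratio with an exact 95% interval of 28.8 to 106 that covers counting error only. Of the 11 UMIs in CaMKK2 KO cMono, 8 came from 1 cell.

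In TAM, WT mice were at 9.42, 4.37, 8.83 and 16.1 CPM and CaMKK2 KO mice at 0.285, 0, 0 and 0.434 CPM. The 4 WT mice had 298 UMIs and the 4 CaMKK2 KO mice 3 UMIs, each in a different cell. The log2 difference was -5.93 (SE 0.70, adjusted p = 0.00215, edgeR), and the pooled ratio was 73.1 (95% interval 24.8 to 356). The 2 CaMKK2 KO mice at 0 had 301 and 409 TAM, which allow shares of up to 0.997% and 0.733% of cells with a UMI. In the same tests 0.996% of genes in cMono and 1.42% of genes in TAM were called lower in CaMKK2 KO.

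The share of cells with an Hpgd UMI separated the genotypes as well. In cMono it averaged 20.8% over WT mice and 0.292% over CaMKK2 KO mice, and in TAM 8.62% and 0.285% (two-sided exact permutation p = 0.0286 in both, the smallest that 4 against 4 mice can give). With every cell thinned to 3000 UMIs the shares were 11.5% and 0.0569% in cMono and 2.39% and 0% in TAM. B cells, at a median depth of 4178 UMIs, held 0 Hpgd UMIs in 365 cells of 8 mice, and NK cells held 1.

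The class with the highest WT level was ncMono, patrolling monocytes. The 3 WT mice with at least 10 ncMono were at 159, 431 and 376 CPM, and WT mouse 1 was at 111 CPM in 2 cells. The CaMKK2 KO mice were at 7.67, 1.92, 0 and 13.9 CPM in 15, 62, 10 and 25 cells. Each of the WT mice lay above each CaMKK2 KO mouse (322 ± 144 against 5.88 ± 6.28 CPM, SD, n = 3 and 4, two-sided exact permutation p = 0.0571, the smallest that 3 against 4 mice can give). Of the 3792 genes with 50 UMIs in ncMono, 5.01% separated in this way. Pooled UMIs, 94 in WT and 5 in CaMKK2 KO, gave a 54.7-fold ratio (95% interval 22.6 to 172). DC2 followed the same direction with less depth: 28 UMIs in 151 WT cells, 3 to 14 in each WT mouse, and 0 UMIs in 61 CaMKK2 KO cells, which allows a share of up to 4.92%. The pooled WT level of 10.9 CPM was 3.89-fold the limit of 2.82 CPM that 3 UMIs set over the CaMKK2 KO group. This ratio leaves out the counting error of WT and the spread between mice, so it is not a lower bound.

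In microglia Hpgd overlapped between the genotypes. WT mice were at 79.9, 125, 83.2 and 253 CPM and CaMKK2 KO mice at 51.8, 31.5, 74.5 and 141 CPM. CaMKK2 KO mouse 4 lay above 3 of the 4 WT mice (log2 difference -0.80, SE 0.41, adjusted p = 0.359, edgeR), and 56.0% of WT and 38.6% of CaMKK2 KO cells held a UMI. With no filter on low counts the same fit gave an adjusted p of 0.00685 for -0.81 in microglia. Pooled UMIs, 476 in WT and 148 in CaMKK2 KO microglia, gave a 1.55-fold ratio (95% interval 1.29 to 1.88, counting error only). The effect in TAM minus that in microglia was -4.77 (SE 0.66, adjusted p = 0.00357, edgeR over 9658 genes, of which 0.135% were called). The effect in cMono minus that in microglia was -4.98 (SE 0.66, adjusted p = 0.00112, edgeR over 7956 genes, of which 0.452% were called). Each model held a level for each mouse, 1 class effect and the difference of that class effect between genotypes. The 7 cMono markers summed to 78.2 to 131 CPM in WT microglia and 297 to 475 CPM in CaMKK2 KO microglia, without overlap, and their part in the microglia values was not tested. By location, 33.0% of the 1444 Hpgd UMIs of WT and 86.5% of the 171 Hpgd UMIs of CaMKK2 KO came from microglia.

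**Figure D3:**
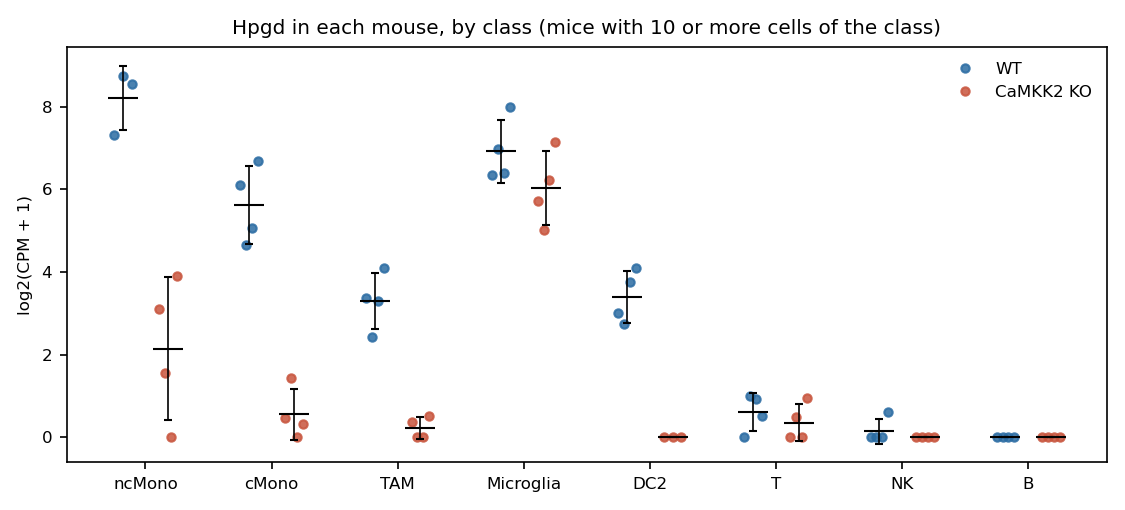
Hpgd level in log2(CPM + 1) by class, 1 point per mouse with at least 10 cells of the class, WT in blue and CaMKK2 KO in red; black bars are the mean and SD of the mice. The genotypes separate in ncMono, cMono and TAM, overlap in microglia, and both lie at or near 0 in T, NK and B cells. All plotted CaMKK2 KO mice are at 0 in DC2, with limits at 3 UMIs of 6.17 to 13.5 CPM. These limits reach into the WT range of 5.70 to 16.1 CPM, so single mice are not told apart there.

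Along a scale from cMono-like to TAM-like cells, pooled Hpgd in WT was higher at the cMono end than at the TAM end. All gated TAM and cMono, and the ungated cells whose best score was for either class and whose microglia score was under 0.2 (363 in WT, 598 in CaMKK2 KO), were placed in 6 bins by the TAM marker score minus the cMono marker score, each score being the mean of its markers on a scale from 0 to 1. Pooled WT levels were 63.1, 36.3, 43.5, 29.0, 15.1 and 6.84 CPM from the most cMono-like to the most TAM-like bin. The CaMKK2 KO levels in the same bins were 5.50, 0.363, 0, 0.325, 0 and 0.102 CPM. CaMKK2 KO lay below WT in each of the 6 bins. The first bin held 69 WT cells, and the 2 WT mice with at least 10 of them were at 34.2 and 74.0 CPM. WT mice ran from 10.3 to 103 CPM in the second bin and from 17.9 to 106 CPM in the third. No order among these first bins can therefore be read. In cMono split by ncMono score, WT cells were at 32.2 CPM under a score of 0.05, 80.1 CPM from 0.05 to 0.15 and 111 CPM above, against 1.02, 0 and 0 CPM in CaMKK2 KO. The WT mice overlapped between these slices: the middle slice ran from 16.4 to 285 CPM over 3 mice and the lowest from 20.9 to 79.2 CPM over 4, and the top slice held 21 WT cells with no mouse reaching 10, so no order between slices can be read. Hpgds ran the other way along the same bins, from 4.25 CPM in the second bin to 183 CPM in the sixth in WT and from 2.66 to 120 CPM in CaMKK2 KO.

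**Figure D4:**
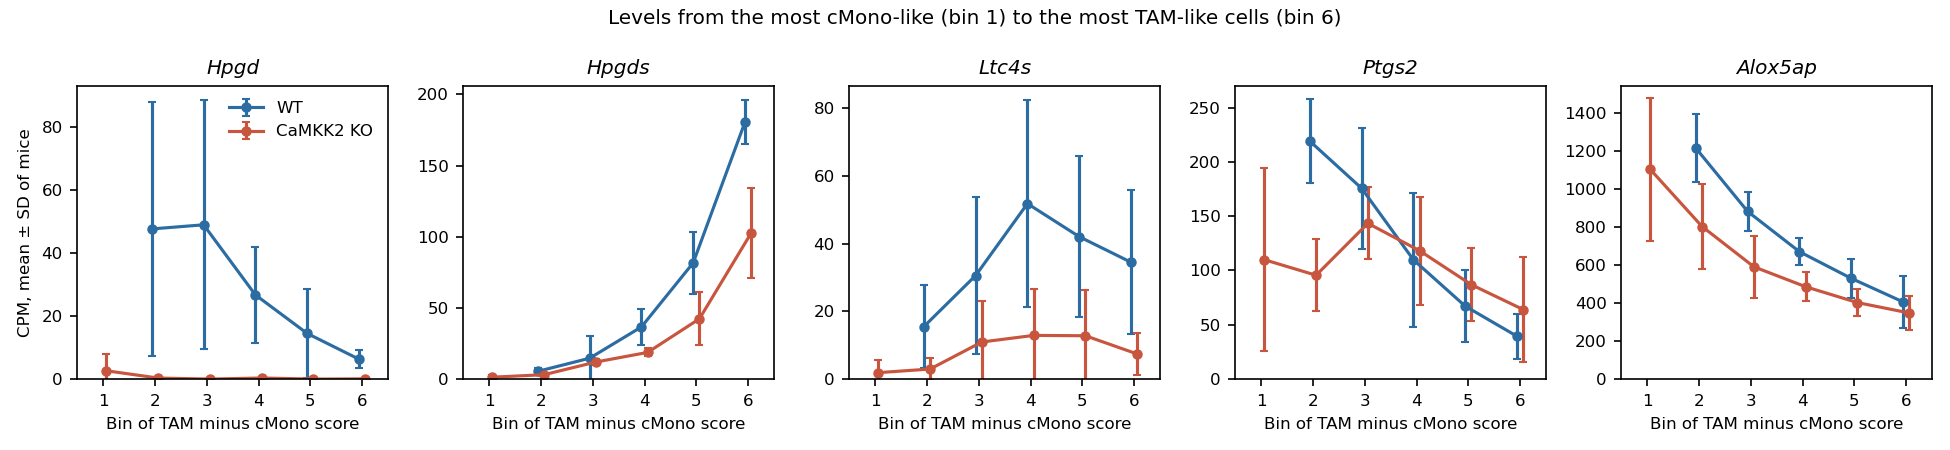
Mean level in CPM of 5 genes over the mice with at least 10 cells, in 6 bins from the most cMono-like (1) to the most TAM-like cells (6); bars are the SD of the mice and are drawn no lower than 0, and WT bin 1 is not drawn because 2 WT mice had 10 cells there. Hpgd stays near 0 in every CaMKK2 KO bin, while Hpgds climbs and Alox5ap declines along the bins in both genotypes.

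Alox5, the 5-lipoxygenase, had 397 UMIs in WT and 205 UMIs in CaMKK2 KO cells, and no class passed the 200 UMI minimum. It was at 426 and 299 CPM in WT and CaMKK2 KO basophil-like cells and at 54.8 and 139 CPM in neutrophil-like cells. In microglia WT mice 1 to 4 were at 44.5, 21.1, 7.34 and 8.65 CPM and CaMKK2 KO mice at 2.36, 0, 17.7 and 7.70 CPM. The groups overlapped, and the 117 and 18 UMIs behind them came from 28.1% and 9.66% of cells. With no filter on low counts Alox5 in microglia passed (log2 difference -1.50, SE 0.41, adjusted p = 0.0158, edgeR), and with a minimum of 50 UMIs it did not (adjusted p = 0.307).

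Alox5ap, which presents arachidonic acid to Alox5, was broad in the myeloid and dendritic classes. In cMono WT mice were at 1310, 1267, 1039 and 1058 CPM and CaMKK2 KO mice at 757, 657, 1080 and 599 CPM. CaMKK2 KO mouse 3 lay within the WT range and the other CaMKK2 KO mice below it (log2 difference -0.60, SE 0.19, adjusted p = 0.137, edgeR). With 1 mouse left out at a time, the difference ran from -0.80 to -0.49 and the edgeR adjusted p from 0.0246 to 0.343. The 1 fit that passed was the one without CaMKK2 KO mouse 3. In TAM the difference was -0.20 (SE 0.18) and in microglia -0.05 (SE 0.21). In DC2, DC1 and ncMono pooled levels ran from 618 to 801 CPM in both genotypes, and in T, NK and DC3 from 5.68 to 10.5 CPM.

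Ltc4s, the leukotriene C4 synthase, was led by microglia, at 581, 554, 357 and 644 CPM in WT mice and 525, 118, 493 and 267 CPM in CaMKK2 KO mice. The groups overlapped (log2 difference -0.59, SE 0.34, adjusted p = 0.410, edgeR). In TAM the values were 64.6, 34.8, 13.7 and 32.9 CPM in WT and 13.4, 2.86, 18.2 and 2.60 CPM in CaMKK2 KO. CaMKK2 KO mouse 3 exceeded WT mouse 3, and the difference of -1.84 (SE 0.58, adjusted p = 0.118, edgeR) did not pass. In DC2 the WT mice were at 94.4, 132, 35.7 and 96.4 CPM, and the 3 CaMKK2 KO mice with at least 10 DC2 were at 4.50, 15.9 and 30.8 CPM. The DC2 groups did not overlap, as in 6% of the 2517 genes with 200 UMIs in DC2, and WT mouse 3 lay close to the highest CaMKK2 KO mouse (two-sided exact permutation p = 0.0571, the smallest that 4 against 3 mice can give).

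Pla2g7, which hydrolyses platelet-activating factor, stood at 912 and 640 CPM in WT and CaMKK2 KO ncMono, 622 and 504 CPM in cMono, 579 and 530 CPM in TAM and 68.5 and 43.3 CPM in microglia, pooled over mice. In TAM WT mice were at 678, 644, 467 and 515 CPM and CaMKK2 KO mice at 301, 847, 507 and 624 CPM. CaMKK2 KO mice 1 and 2 lay on either side of all WT mice (log2 difference -0.02, SE 0.27). The differences in cMono (-0.27, SE 0.18) and microglia (-0.53, SE 0.29) did not pass either. Among the few neutrophil-like cells, Pla2g7 was at 414 CPM in 12 cells of WT mouse 2 and 1341 CPM in 10 cells of CaMKK2 KO mouse 3. The other mice had fewer than 10 such cells, and these levels were not tested.

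Ptger4, the prostaglandin E2 receptor EP4, was measured in lymphoid, dendritic and myeloid classes. In DC3 the WT mice were at 186, 268, 283 and 190 CPM and the CaMKK2 KO mice at 237, 213, 249 and 207 CPM, with WT mouse 1 resting on 3 cells. The groups overlapped. In NK cells the WT mice were at 16.3, 9.54, 25.4 and 21.8 CPM and the CaMKK2 KO mice at 32.1, 36.6, 20.0 and 43.9 CPM, and CaMKK2 KO mouse 3 lay within the WT range (log2 difference 0.76, SE 0.29, adjusted p = 0.176, edgeR). With 1 mouse left out at a time, the NK difference ran from 0.54 to 0.99 and the edgeR adjusted p from 0.0201 to 0.431. The 1 fit that passed was the one without CaMKK2 KO mouse 3. In T cells it was -0.05 (SE 0.23), in TAM -0.24 (SE 0.17) and in cMono -0.45 (SE 0.20, adjusted p = 0.277).

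In 7 classes every mouse had at least 10 cells (T, CD8 T, NK, B, cMono, microglia and TAM). CD8 T is a subset of the T class, so the same cells enter both. Over these classes 22 tests of 8 of these genes were made, and 2 passed an adjusted p of 0.05, both for Hpgd. An unadjusted p under 0.05 was found in 8 of the 22. The share of all genes at that level is not given here, so the 8 cannot be read as an excess. Of all genes, 1.92% were called in T, 1.52% in CD8 T, 2.45% in NK and 2.86% in B cells, where 1, 1, 1 and 0 of the 10 genes were tested and 0 called by edgeR. In TAM 8 genes were tested, 1 was called lower and 0 higher, and their median log2 difference was -0.46 beside -0.08 over all genes tested, of which 2.37% were called. In cMono it was 1 of 5 called, with a median of -0.60 beside -0.02 and 2.14% of all genes called. In microglia 0 of 6 were called by edgeR, with 0 of 6 at an unadjusted p under 0.05, a median of -0.36 beside -0.11 and 1.46% of all genes called. By DESeq2 the 7 classes gave 4 calls, Hpgd and Hpgds in TAM and Hpgd and Ptgs2 in cMono, without the DESeq2 share over all genes beside them.

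**Figure D5:**
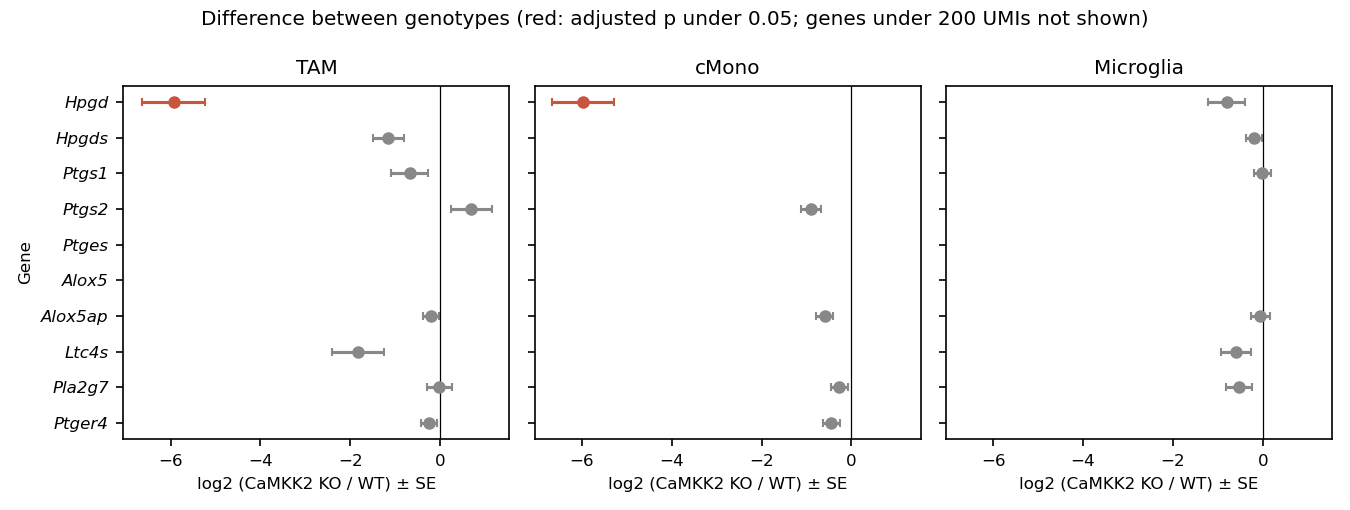
Log2 difference between CaMKK2 KO and WT with its SE for each of the 10 genes that reached 200 UMIs in TAM, cMono and microglia; red points passed an adjusted p of 0.05. Hpgd stands at -5.93 in TAM and -5.97 in cMono, and the remaining points lie between -1.84 and 0.69.

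Summed over all cells of a mouse, Hpgd was at 20.1, 18.5, 16.8 and 28.5 CPM in WT and 1.49, 1.16, 2.95 and 5.22 CPM in CaMKK2 KO (log2 difference -3.00, SE 0.43, adjusted p = 0.0109, edgeR, with 1.56% of genes called and 0.896% called lower). Hpgds over all cells was at 163, 88.3, 60.9 and 92.9 CPM in WT and 46.5, 19.0, 60.2 and 25.4 CPM in CaMKK2 KO. WT mouse 3 and CaMKK2 KO mouse 3 were nearly level, and the groups did not overlap. The log2 difference was -1.42 (SE 0.41, adjusted p = 0.147, edgeR), and 6.72% of genes separated in this direction. Ltc4s was at 131, 71.2, 21.3 and 46.2 CPM in WT and 21.3, 5.26, 34.3 and 10.9 CPM in CaMKK2 KO, with overlap. In such sums fewer cells of a class and less RNA per cell cannot be told apart: the WT mice contributed 302 microglia and 1694 TAM, the CaMKK2 KO mice 145 and 1256. With microglia left out, Hpgd ran from 8.48 to 22.9 CPM in the WT mice and from 0.0511 to 0.609 CPM in the CaMKK2 KO mice, again without overlap.

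Of 75 other genes of eicosanoid and platelet-activating factor metabolism, 73 were in the tables and 2 were called over the 7 classes. Ltb4r1, the high-affinity leukotriene B4 receptor, was at 10.0, 17.0, 11.7 and 6.30 CPM in WT TAM and at 46.4, 78.2, 27.9 and 54.6 CPM in CaMKK2 KO TAM. Every CaMKK2 KO mouse lay above every WT mouse, as in 4.25% of genes, and the gene rose by 2.22 on the log2 scale (SE 0.35, adjusted p = 0.0116, edgeR). It was the 1 called gene of 38 listed genes tested in TAM, where 2.37% of all genes were called. Mgst2, a microsomal glutathione S-transferase that can also form leukotriene C4, was at 49.1, 37.4, 30.0 and 32.0 CPM in WT T cells and 10.9, 10.1, 16.5 and 20.2 CPM in CaMKK2 KO T cells. Mgst2 fell by 1.30 on the log2 scale (SE 0.22, adjusted p = 0.00943, edgeR), the 1 called of 20 listed genes tested in T cells, where 1.92% of all genes were called. The groups did not overlap, and the share of T cell genes that separate in this way is not given here. WT mouse 1, the highest, rested on 38 T cells with 284969 UMIs, and the call held with that mouse left out. It did not hold with cells weighted equally (limma) or with B cell levels subtracted. The T class held 43 CD4 T and 398 CD8 T cells in WT and 231 and 347 in CaMKK2 KO. The part of this makeup in the Mgst2 values was not tested. In cMono 0 of 32 and in microglia 0 of 19 listed genes were called by edgeR, beside 2.14% and 1.46% of all genes.

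By family, the 5 leukotriene and resolvin receptor genes tested in TAM had a median log2 difference of 0.96 and the 10 lipoxygenase and leukotriene enzyme genes one of -0.05, beside -0.08 over all genes. The 8 genes of arachidonate release tested in TAM had a median of -0.25 and the 7 tested in cMono one of 0.07, and the 6 of prostanoid synthesis at -0.20 in TAM. In cMono the 9 lipoxygenase and leukotriene enzyme genes had a median of -0.44 beside -0.02 over all genes. These medians are descriptions of lists chosen with earlier results of these data known.

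The genes whose mean level over 9 classes ran most like that of a member were found by Pearson's r of log2(CPM + 1), among 11275 genes. They were Nat8l, Zfp384 and Wsb1 for Hpgd (r from 0.96 to 0.98) and Tmem68, Etv5 and Pacc1 for Hpgds (0.97 to 0.99). For Ptgs1 they were Olfml3, Ccl12 and Itm2b, with r from 0.98 to 0.99, and for Ltc4s Spire1, Rnf144b and Soga1, with r from 0.95 to 0.96. Olfml3 is one of the microglia markers. Ptgs2 was matched by Isg15, Ptgs2os2 and 4930589L23Rik (0.96 to 0.97), Alox5ap by Deptor, C130050O18Rik and Pid1 (0.98) and Alox5 by Foxred1, Mapkapk5 and Plek (0.93 to 0.96). Pla2g7 was matched by Ankrd66, Nr1h3 and Fpr1 (0.97 to 0.98) and Ptger4 by Ube2k, Rab29 and Rbbp8 (0.94 to 0.96). The 9 points share their mice, libraries and depth. These are the 3 highest of 11275 genes for each member, so a high r comes in part from the choice. Several matches were low in every class. The highest class mean was 8.87 CPM for Nat8l, 7.44 for Ankrd66, 6.45 for Ptgs2os2, 5.52 for Mapkapk5 and 4.62 for 4930589L23Rik.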

How the data were processed

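Deposited UMI counts were used, 1 matrix per genotype with hashtag counts beside the genes. Per the submitters' processing notes the authors made these counts with bcl2fastq 2.20, Cell Ranger 4.0.0, STAR 2.7.5c and mm10. Here mice were assigned by HTODemux (Seurat 5.3.0, quantile 0.99) in R 4.3.3. Hashtag doublets, cells under 200 genes or beyond 3 median absolute deviations, and the cells that scrublet scored highest as doublets were removed. A cell was gated when its best class score was at least 0.2 and led the next by 0.1, a rule set after the data were seen. The authors tested cells as units, which was not done here. For each mouse the UMIs of a class were added up. Genes that reached 200 UMIs there entered edgeR 4.0.16 (quasi-likelihood, library size equal to the class total, Benjamini-Hochberg). SEs are the log2 difference divided by the root of F. The mice are separate animals. DESeq2 1.42.0, limma 3.58.1 (log2 of CPM plus 1), scanpy 1.11.5 clusters, TMM, other filters and left-out mice were alternatives. In simulated counts edgeR recovered 77% of 2-fold changes in TAM, 70% in cMono and 80% in microglia, and 3.87%, 8.65% and 4.26% of its calls were false. In NK and T cells 7.07% and 6.22% of the edgeR calls were false. For DESeq2 8.67% were false in TAM, 10.2% in cMono, 4.28% in microglia, 5.18% in NK and 4.06% in T cells. In these draws the false share was above the nominal 5% for both tools in cMono and NK, for DESeq2 also in TAM and for edgeR also in T cells. Each class was simulated in 1 draw, so shares near 5% cannot be told from it.

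The members and lists were chosen with earlier results of these data known. Named genes are the 10 members, other pathway genes past an adjusted p of 0.05 and, per member reaching 10 CPM in a class, the 3 genes of highest Pearson r. Intervals and limits at a count of 0 (3 counts) cover counting error only.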

Additional observations from a re-analysis of the deposited data

Results flagged for a closer look

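The Hpgd effect of CaMKK2 KO differed between classes when the difference itself was tested. The effect in TAM minus that in microglia was -4.77 on the log2 scale (SE 0.66, adjusted p = 0.00357, edgeR quasi-likelihood test). The effect in cMono minus that in microglia was -4.98 (SE 0.66, adjusted p = 0.00112, same test).

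Of 72 sets of 4 mice, 4 had a mouse far from the others, where chance flags about 5%. Ptgs2 in cMono was at 71.7 CPM in CaMKK2 KO mouse 3, below 131, 132 and 138 CPM in the other CaMKK2 KO mice. Alox5 in TAM was at 9.77 CPM in WT mouse 1, against 0.333, 1.57 and 1.75 CPM in the other WT mice. Alox5 over all cells was at 13.9 CPM in WT mouse 1, against 2.98, 3.04 and 4.76 CPM. Ptger4 over all cells was at 33.4 CPM in CaMKK2 KO mouse 2, below 36.1, 36.2 and 36.6 CPM. That difference is small and was flagged because the other mice lay close together.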

How the results depend on the processing

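Of 302 recomputed values of 22 results, 272 kept their direction and side of the threshold and 0 turned in direction. These 22 results are another set than the 22 class tests above and are not listed here, so the counts do not describe those tests. Leaving out each mouse gave Hpgd differences of -7.47 to -5.43 in cMono, -6.75 to -5.41 in TAM and -3.48 to -2.74 over all cells. Over all 19 settings the range was -7.47 to -5.15 in cMono and -6.75 to -3.13 in TAM, the last with limma on log2(CPM + 1), a scale that understates changes of low genes (adjusted p = 0.00165). With the B cell level subtracted, Hpgd in TAM was -5.70 (adjusted p = 0.527, edgeR). B cells held 0 Hpgd UMIs, so this setting left the Hpgd counts unchanged and altered only those of other genes. The 2 calls among the 10 genes became 4 with DESeq2, 8 with no filter, 1 with B cell levels subtracted and 2 to 5 with a mouse left out, 5 without CaMKK2 KO mouse 3. The 2 calls among the other pathway genes became 8 with DESeq2, 7 at 50 UMIs, 17 with no filter, 4 with clusters, 4 with the stricter margin, 1 with equal cell weights, 0 with B cell levels subtracted and 2 to 5 with a mouse left out (4 without WT mouse 1, 5 without CaMKK2 KO mouse 3). The share of all genes called under each setting is not given beside these counts. They show only that calls depend on the setting, and no gain of the listed genes over other genes can be read from them. With no filter, Ltc4s (-0.59, adjusted p = 0.0288, edgeR) and Alox5 (-1.50, adjusted p = 0.0158) passed in microglia. Equal weight was also given to 6 classes, T, NK, B, cMono, microglia and TAM, which leaves out ncMono. The difference was then -21.1 CPM for Hpgd and -22.3 CPM for Hpgds (two-sided exact permutation p = 0.0571 for both). Without TAM, the all-cell difference of Hpgds was -49.1 CPM (exact permutation p = 0.2). The cause of these changes was not tested. No paired analysis was possible because no label ties a hashtag number in 1 channel to a mouse in the other. Ptges and Alox5, under 200 UMIs in every class, were tested by class only under the lower minimums.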
